A study of Rattus norvegicus with 24 samples.

Results

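Mitochondrial ribosomal proteins build the ribosome that works inside mitochondria, where it translates the messages of the mitochondrial genome into core subunits of the respiratory chain and the ATP synthase. The genes for these proteins lie in the nucleus, and their products are made in the cytosol, imported, and assembled with mitochondrial ribosomal RNA into a large subunit, which forms peptide bonds, and a small subunit, which decodes the message. Skeletal muscle relies on this machinery to maintain its oxidative capacity. The family was defined as every gene whose symbol begins with Mrpl or Mrps followed by a number, which gave 71 of the 13458 gene symbols in the table. Of these, 43 carried a large-subunit symbol (Mrpl) and 28 a small-subunit symbol (Mrps).

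The samples were tibialis anterior (TA) muscles of male Fischer 344 rats aged 23 ± 1 months. In 9 rats tetrodotoxin (TTX), which blocks voltage-gated sodium channels and so silences the nerve, was delivered to the left common peroneal nerve. Left limbs were taken after 6 to 7 days of TTX (atrophy, n = 3), after TTX followed by 9 days without it (recovery, n = 3), or after a second TTX period of 5 to 6 days that followed recovery (repeated atrophy, n = 3). The untreated right limbs of the same 9 rats were the control group, so every control limb came from an animal that also carried a TTX-treated limb. A further 3 rats had sham surgery without TTX, and both limbs of each were sequenced (sham left and sham right, n = 3 each). Rats are named A1 to A3 (atrophy), R1 to R3 (recovery), RA1 to RA3 (repeated atrophy) and S1 to S3 (sham). These 3 sham rats belonged to different time points, 1 at each, so the sham group did not replicate any time point. Messenger RNA was read as poly-A selected, strand-keeping paired-end libraries of whole muscle. In such bulk RNA, fewer cells of a type and less RNA per cell cannot be told apart.

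Values were counts per 1000000 assigned reads (CPM), and the size of the smallest steps in each column placed the libraries between 18.9 and 30.9 times 1000000 reads. A gene was called different where limma's test on log2(CPM + 1), fitted over all rows of the table, gave an adjusted p of at most 0.05 and a fold change of at least 1.2. CPM values depend on what else is in the library. The 10 most abundant rows took 24.3% to 32.7% of all counts in control limbs, 13.0% to 25.6% after atrophy and 15.6% to 19.2% after repeated atrophy. Of the atrophy limbs, that of A2 had 25.6%, and those of A1 and A3 had 13.0% and 15.6%. The median log2 fold change over all rows was 0.22 after atrophy and 0.20 after repeated atrophy, but 0.02 after recovery. Each comparison was therefore also given after rescaling the columns by trimmed means, after which these medians lay at -0.00026, -0.0105 and 0.025.

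All 71 members were detected in every limb. Per kilobase of transcript, the median member had 41.2 CPM per kb over the 24 limbs, and 57 of the 71 lay between 20 and 80 CPM per kb. The large-subunit and small-subunit members had similar medians, at 43.7 and 40.0 CPM per kb. At the top stood Mrpl54, a mitochondria-specific large-subunit protein, with 131 CPM per kb, then Mrps36 with 109, Mrps21 with 106 and Mrps7 with 100.2. Despite its name, Mrps36 is known as a component of the 2-oxoglutarate dehydrogenase complex and not of the ribosome. At the bottom stood Mrps28 with 1.8 CPM per kb, Mrps10 with 8.76, Mrps2 with 10.6 and Mrps35 with 11. The order therefore spanned 72.5-fold between proteins that enter the assembled particle together. Transcript lengths were those of the table's own models, so a model that is too short or too long moves a gene in this order. The spread between the 9 control limbs was moderate, with a median coefficient of variation of 17.4% over the members, from 5.76% to 75%.

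The genes were spread over 17 chromosomes of the rn7 assembly, with 12 on chromosome 1 and 11 on chromosome 10. Several lay close to another gene: 19 of the 71 had a neighbour within 300 bases, on the opposite strand in each case but that of Mrps34, and 5 overlapped a gene on the other strand, among them Mrps7 with Gga3 and Mrpl47 with Actl6a. How the counting step used strand is not given in the sources used here, so reads in those overlaps may have been shared. Of the members within 300 bases of a neighbour, Mrpl46 and Mrps11 neighboured each other, head to head on chromosome 1 and 232 bases apart. RefSeq promoter windows (300 bases, from 250 before to 50 after the gene's start, GRCr8 assembly) were matched for 54 of the 71 members. The following are examples picked after the values were seen, from genes described in the results, and Mrpl46 is shown because its start lies beside that of another member. Other genes with changes as large, such as Mrpl23 and Mrpl17, also had a window. Capitals mark matches, on either strand, to motifs of factors tied to mitochondrial gene expression: NRF1 (GCGCA and GCGC with any base between them), ETS factors such as GABPA (CCGGAAG) and YY1 (AANATGGCG), and also to an E-box (CACGTG) and a TATA box (TATAAA).
Mrpl45, chr10:82804789-82805088, plus strand, the gene with the largest rise, with NRF1 matches at -229 and -145:
Mrpl45: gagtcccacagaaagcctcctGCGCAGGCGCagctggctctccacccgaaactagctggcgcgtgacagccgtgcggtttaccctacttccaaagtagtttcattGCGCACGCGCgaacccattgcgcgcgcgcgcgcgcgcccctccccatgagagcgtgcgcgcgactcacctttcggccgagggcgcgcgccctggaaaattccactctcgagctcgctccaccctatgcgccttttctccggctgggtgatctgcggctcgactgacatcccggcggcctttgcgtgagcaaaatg
Mrpl32, chr17:55260401-55260700, plus strand, which also rose, with an NRF1 match at -62:
Mrpl32: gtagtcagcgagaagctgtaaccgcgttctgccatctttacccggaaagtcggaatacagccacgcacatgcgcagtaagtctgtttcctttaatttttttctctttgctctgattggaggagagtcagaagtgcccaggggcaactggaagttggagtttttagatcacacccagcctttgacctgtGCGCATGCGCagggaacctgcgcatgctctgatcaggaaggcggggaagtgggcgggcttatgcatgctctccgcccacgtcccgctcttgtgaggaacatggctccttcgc
Mrpl36, chr1:31795072-31795371, minus strand, with an ETS match at -75, an E-box at -29 and a YY1 match at -17:
Mrpl36: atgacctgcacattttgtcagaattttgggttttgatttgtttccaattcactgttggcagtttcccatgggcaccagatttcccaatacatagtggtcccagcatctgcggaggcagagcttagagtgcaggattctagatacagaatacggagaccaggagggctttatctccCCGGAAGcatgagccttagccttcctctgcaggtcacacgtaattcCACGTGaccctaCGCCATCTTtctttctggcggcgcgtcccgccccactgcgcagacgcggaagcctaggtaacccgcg
Mrpl12, chr10:106256496-106256795, plus strand, which fell after repeated atrophy, with no match to these motifs:
Mrpl12: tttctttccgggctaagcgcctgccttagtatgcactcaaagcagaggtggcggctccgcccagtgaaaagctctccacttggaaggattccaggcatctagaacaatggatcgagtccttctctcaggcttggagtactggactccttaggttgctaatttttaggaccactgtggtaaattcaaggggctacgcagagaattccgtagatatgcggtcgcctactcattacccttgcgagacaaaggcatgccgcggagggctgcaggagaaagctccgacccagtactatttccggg
Mrps30, chr2:52195855-52196154, minus strand, which rose in recovery, with a TATA box match at -129 and a YY1 match at 18:
Mrps30: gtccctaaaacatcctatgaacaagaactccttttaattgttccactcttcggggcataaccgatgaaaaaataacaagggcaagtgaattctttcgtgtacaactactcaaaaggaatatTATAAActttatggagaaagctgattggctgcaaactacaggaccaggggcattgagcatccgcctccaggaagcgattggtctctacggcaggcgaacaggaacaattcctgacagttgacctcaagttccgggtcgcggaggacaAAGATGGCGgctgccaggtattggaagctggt
Mrpl46, chr1:142116981-142117280, minus strand, whose window shares 267 bases with that of Mrps11, with a TATA box match at -157 and a YY1 match at 24:
Mrpl46: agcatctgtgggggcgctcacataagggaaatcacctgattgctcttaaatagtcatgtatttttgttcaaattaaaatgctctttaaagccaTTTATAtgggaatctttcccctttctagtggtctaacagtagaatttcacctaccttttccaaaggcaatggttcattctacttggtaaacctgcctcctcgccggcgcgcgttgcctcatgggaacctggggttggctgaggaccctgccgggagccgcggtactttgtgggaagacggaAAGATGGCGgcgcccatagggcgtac
Positions count from the first transcribed base as 0. Over the family the ETS motif was found in 19 of 54 windows (35.2%, against 8.75% of all 33469 rat promoter windows), the YY1 motif in 13 (24.1%, against 3.01%) and the NRF1 motif in 8 (14.8%, against 4.25%). The E-box was found in 11.1% against 6.42%, the ERRA motif (CAAGGTCA) in 3.70% against 1.52%, the CRE (TGACGTCA) in 1.85% against 1.83%, and the TATA box in 13.0% against 14.2%. The members' windows were also richer in G and C, with a median of 56.2% against 51.7%, and all of these shares are descriptions of letters, not of binding.

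The first question was whether silencing the nerve changed the family. After atrophy, as deposited, 23 of the 71 members were higher than in control limbs and 0 were lower (32.4%), beside 22.6% of all rows called (20.3% higher and 2.33% lower). The rises were shared between the subunits, with 13 of 43 large-subunit and 10 of 28 small-subunit members. The median log2 fold change was 0.34 for either subunit, and 60 of the 71 members had a positive value. After rescaling, however, none of the 23 rises was called and only Mrpl2, a core large-subunit protein, was called lower (log2 fold change -0.68 ± 0.15 SE, adjusted p = 0.0168 with limma), beside 9.82% of rows called (4.7% higher and 5.12% lower). The rescaled median was -0.03, and 32 of the 71 members then had a positive value. When each limb was compared with the right limb of the same rat (the animal as a block in limma), 0 members and 0 rows were called, with 10 members and 2678 rows at an unadjusted p under 0.05. Without the left and right limb of A1 the as-deposited count was 0, without A3 it was 10, and without A2 it was 33. Leaving out RA2 or any recovery rat, which only feed the control group and the estimate of spread, gave 14 or 15. The share of all rows called in fits without an animal is not given, so such counts, here and below, describe the members alone.

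Mrpl45, the mitoribosome's membrane-facing subunit near the exit of the peptide tunnel, had the largest value. It read 312, 123 and 354 CPM in the 3 atrophy limbs, against 86.9 to 224 (median 95.2) in the 9 control limbs. The limb of A2 lay inside the control range and the other 2 lay above it. The log2 fold change was 1.15 ± 0.28 (SE, adjusted p = 0.0107, limma), 0.78 after rescaling (adjusted p = 0.0601) and 0.90 within animals (adjusted p = 0.151). Mrpl32, a large-subunit protein whose processing is needed for ribosome assembly, read 59.0, 37.7 and 45.8 CPM against 14.8 to 35.8 (median 19.8) in control, with all 3 limbs above the control range. Its log2 fold change was 1.02 ± 0.24 (adjusted p = 0.0101, limma) and 0.65 after rescaling (adjusted p = 0.0835). Mrpl36 (0.95), Mrpl23 (0.85), Mrpl21 (0.77) and, in the small subunit, Mrps10 (0.74) followed on the same log2 scale, each called as deposited and none after rescaling. Over the family, 4 members had all 3 atrophy limbs above every control limb and 0 had all below, beside 4.75% and 0.52% of rows.

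**Figure D1:**
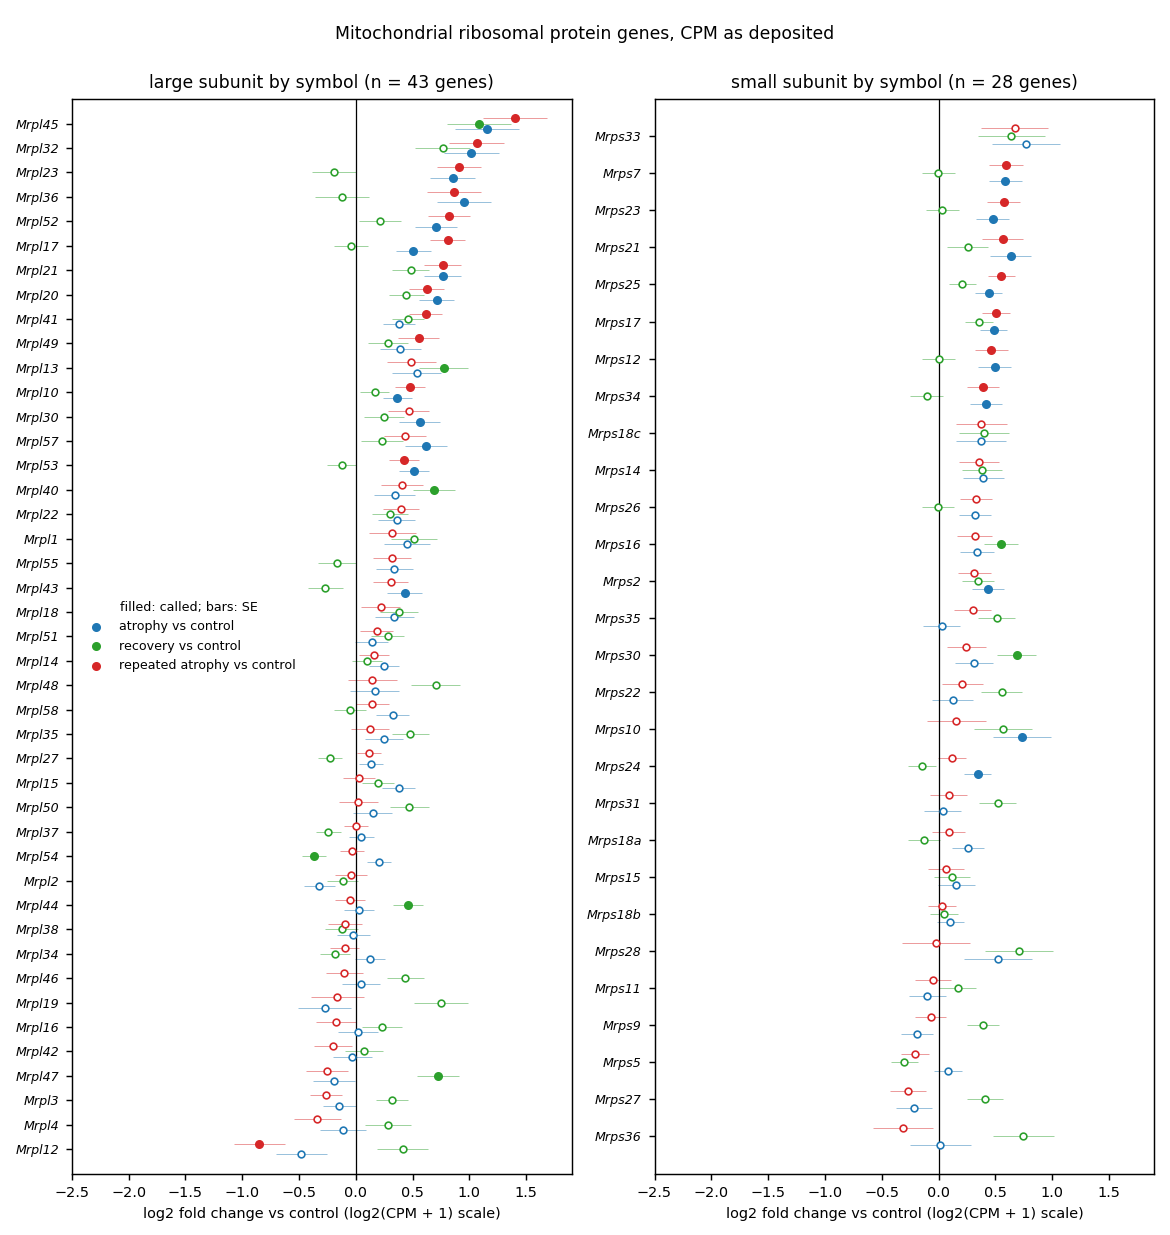
Log2 fold change against control (x axis, log2(CPM + 1) scale, as deposited) of the 43 large-subunit and 28 small-subunit genes (y axis), for atrophy (blue), recovery (green) and repeated atrophy (red), with bars for SE and filled points for genes that passed the test. Mrpl45 is filled in all 3 colours at 1.15, 1.08 and 1.40, and Mrpl12 is the lowest red point at -0.85.

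The recovery comparison asked what remained 9 days after TTX was removed. The median log2 fold change of the members was 0.28 as deposited and 0.29 rescaled, against 0.02 for all rows in either case. Within animals it was 0.24 as deposited and 0.13 rescaled, against 0.08 and 0.02 for all rows. As deposited, 7 members were higher and 1 was lower (11.3% of the members, beside 7.73% of rows, 4.4% higher and 3.33% lower), and after rescaling 11 were higher and 0 lower (15.5%, beside 11.8%, 6.59% higher and 5.25% lower). Of the 43 large-subunit members 5 rose and 1 fell, and of the 28 small-subunit members 2 rose. The medians were 0.28 and 0.35. All 7 rises were also called after rescaling, together with Mrpl21, Mrpl32, Mrpl41 and Mrps17. Within animals 0 members were called, beside 0.0641% of rows, and 17 members and 2521 of 14031 rows were at an unadjusted p under 0.05. The as-deposited count was 0 without R1 or without R2, 1 without RA2, 5 without A3 or RA3, and 14 without A2.

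Mrps30, which despite its symbol sits in the large subunit of the assembled ribosome, read 81.4, 72.9 and 67.3 CPM, all above the control range of 32.4 to 61.3 (median 43.4). Its log2 fold change was 0.69 ± 0.17 (SE, adjusted p = 0.021, limma), with 0.67 within animals (adjusted p = 0.213). Mrpl47, the large-subunit counterpart of bacterial L29, read 55.6, 54.2 and 33.7 CPM against 21.2 to 34.7 (median 26.8). The first 2 recovery limbs were above every control limb and the limb of R3 was inside their range (0.72 ± 0.19, adjusted p = 0.0254, limma). Mrpl13, a core large-subunit protein, read 71.0, 62.8 and 62.3 CPM against 24.5 to 53.2 (median 39.4), with no overlap (0.77 ± 0.22, adjusted p = 0.0362, limma). Mrpl40 (0.69), Mrps16 (0.55) and Mrpl44 (0.46), whose product resembles an RNase III enzyme, were the others, and each had all 3 recovery limbs above the control range. Mrpl45 again had the largest value, and its recovery limbs were the most even of any group, at 229, 235 and 219 CPM (1.08 ± 0.28, adjusted p = 0.026, limma). All 3 recovery limbs lay above 8 of the 9 control limbs, and the remaining control limb, the right limb of A3 at 224 CPM, lay between them. Mrpl54 was lower in recovery, at 72.2, 60.0 and 57.1 CPM against 74.1 to 88.7 (median 81.1), with no overlap (-0.37 ± 0.11, adjusted p = 0.0409, limma), but it was not called after rescaling (adjusted p = 0.0745) or within animals (adjusted p = 0.282). In all, 14 members had the 3 recovery limbs above every control limb and 2 had them below, beside 5.57% and 4.84% of rows.

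Markers of other cells differed between the groups. The summed level of 5 fibroblast markers was 1022 to 1918 CPM in recovery, against 194 to 528 in control, 221 to 528 after atrophy, 319 to 514 after repeated atrophy, 215 to 624.8 in sham left and 256 to 367 in sham right limbs. Of these 5 markers 4 were higher in recovery as deposited and 5 after rescaling. The 7 macrophage and leukocyte markers summed to 82.4 to 168 CPM in recovery, 29.4 to 100.1 in control, 52.8 to 117 after atrophy, 29.5 to 91.4 after repeated atrophy, 69.3 to 118 in sham left and 46.5 to 119 in sham right limbs, so that each of the other groups overlapped recovery. Of these 7 markers 4 were higher in recovery as deposited and 6 after rescaling. Myofibre markers summed to 132620 to 137290 CPM in recovery, 110575 to 172740 (median 159314) in control, 65717 to 119968 (median 72276) after atrophy and 94418 to 112587 (median 107835) after repeated atrophy. The sham limbs, without TTX, had 86132 to 129791 CPM (median 111687) on the left and 92296 to 146768 (median 111795) on the right. Of these 7 markers 0 were called after atrophy or in recovery by limma under either scaling, and 1, Mb, was higher after repeated atrophy as deposited but not when rescaled. The 3 satellite cell markers summed to 2.74 to 12 CPM in control, 7.41 to 86.2 after atrophy, 8.33 to 21 in recovery and 33.5 to 62.5 after repeated atrophy, and 1 of them, Myf5, was called higher after atrophy and repeated atrophy under both scalings. In the sham limbs their sum ran from 3.8 to 68.9 CPM on the left and from 1.61 to 52.3 on the right. Of 5 endothelial markers 0 were called in any of the 3 comparisons as deposited (limma) and 3 were lower after repeated atrophy when rescaled. Within animals 0 of the fibroblast and 0 of the macrophage and leukocyte markers were called in recovery, with medians of 1.75 and 1.10 on the log2 scale, and Myf5 was called after repeated atrophy but not after atrophy. No listed marker was at 0 in all limbs of a group. The part of these cells in the members' values was not tested.

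The third comparison was the second TTX period. As deposited, 19 members were higher and 1 was lower than in control limbs after repeated atrophy (28.2%, beside 34.3% of rows, 28.1% higher and 6.24% lower), so the family was called no more often than the table. Of the large-subunit members 12 rose and 1 fell, and of the small-subunit members 7 rose. The medians were 0.18 and 0.27, around the 0.20 of all rows. After rescaling 4 members were higher and 10 lower (19.7%, beside 25.2%, 13.1% higher and 12.1% lower), with a median of -0.15. The 4 that rose under both scalings were Mrpl45, Mrpl32, Mrpl23 and Mrpl17, all in the large subunit. The 10 lower after rescaling were Mrpl12, Mrpl3, Mrpl4, Mrpl34, Mrpl37, Mrpl44, Mrpl47, Mrpl54, Mrps5 and Mrps27. Within animals 18 were higher and 0 lower (25.4%, beside 27.1% of rows), with a median of 0.35 against 0.20, and 15 of the 19 as-deposited rises were among them. The other 4 were Mrpl49, Mrpl53, Mrps21 and Mrps34, with adjusted p of 0.0903, 0.0827, 0.0533 and 0.0701 within animals. Within animals and rescaled, 5 were higher and 4 lower, beside 21.1% of rows, and without RA2 the as-deposited count was 11.

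Mrpl45 read 336, 278 and 243 CPM after repeated atrophy, and all 3 limbs were above the highest control limb. Its mean of 286 ± 47.0 (SD, n = 3) was 2.64-fold that of control on the log2(CPM + 1) scale (1.40 ± 0.28 SE, adjusted p = 0.00119, limma), with 1.01 after rescaling (adjusted p = 0.00756) and 1.67 within animals (adjusted p = 0.00316). Mrpl32 read 58.9, 56.3 and 34.0 CPM, and the limb of RA3 was within the control range. Its log2 fold change was 1.06 ± 0.24 (adjusted p = 0.00277, limma), with 0.69 rescaled (adjusted p = 0.039). Mrpl23, a core protein at the tunnel exit, read 65.8, 46.9 and 49.4 CPM against 22.1 to 43.9 (median 24.7), with no overlap (0.91 ± 0.20, adjusted p = 0.00189, limma). Mrpl17 read 156, 146 and 139 CPM against 64.5 to 108 (median 80.8), also with no overlap (0.81 ± 0.15, adjusted p = 0.000681, limma). The table held 3 rows for Mrpl17, and the second, with a mean of 86.7 CPM against 97.4 for the row used, had 1.25 after repeated atrophy, 1.09 after atrophy and 0.64 after recovery. Mrpl36, Mrpl52 and Mrpl21 had log2 fold changes of 0.87, 0.82 and 0.76 as deposited and passed, and missed the threshold after rescaling. Of the small-subunit members that passed, Mrps7 (0.60) and Mrps23 (0.57) had the highest values, and Mrps33 had 0.67 without passing (adjusted p = 0.0882, limma).

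Mrpl12 moved the other way. Its product is the stalk protein of the large subunit, and it is also known to bind the mitochondrial RNA polymerase. It read 84.6, 68.1 and 69.8 CPM after repeated atrophy, all below the 89.9 to 195 (median 139) of the control limbs. The log2 fold change was -0.85 ± 0.22 (SE, adjusted p = 0.00705, limma), -1.24 after rescaling (adjusted p = 0.00438) and -0.67 within animals (adjusted p = 0.0826), and without RA2 it was -0.82 and no longer called. After atrophy it read 74.2, 112 and 106 CPM (-0.48 ± 0.22, adjusted p = 0.128, limma) and in recovery 202, 199 and 142 CPM (0.41 ± 0.22, adjusted p = 0.264, limma). In the 3 sham rats it read 95.6, 168 and 84.9 CPM on the left and 83.5, 152 and 73.1 on the right, so a low level was also found in limbs that had no TTX. Over the family 14 members had all repeated atrophy limbs above every control limb and 1, Mrpl12, had all below, beside 16.5% and 3.87% of rows.

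**Figure D2:**
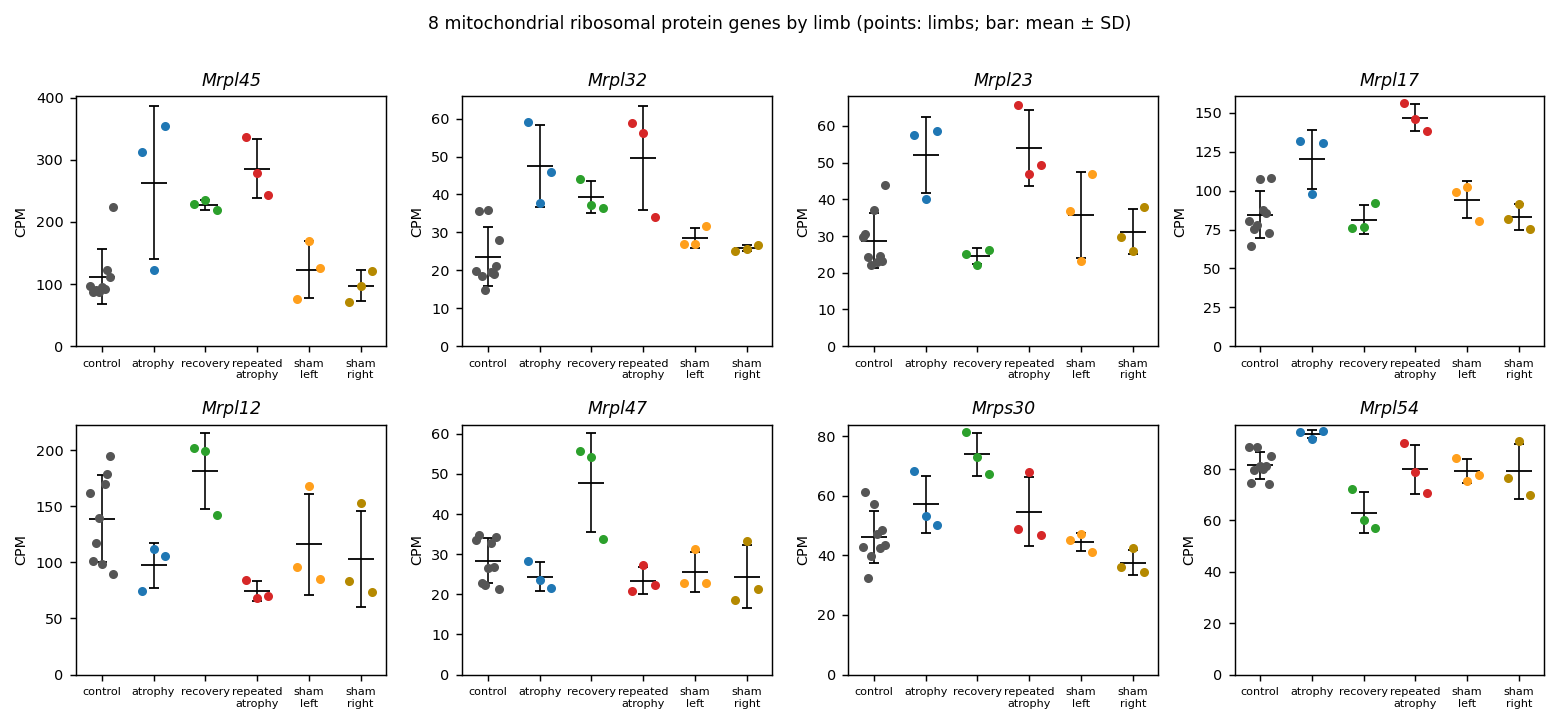
CPM (y axis, from 0) of 8 members in every limb by group (x axis), with points for limbs and bars for the mean ± SD (control n = 9, other groups n = 3). The 3 repeated atrophy limbs lie above every control limb for Mrpl45, Mrpl23 and Mrpl17 and below every one for Mrpl12, and the 3 recovery limbs lie above every one for Mrps30 and below for Mrpl54.

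The direct comparisons between time points asked which members differed between atrophy and recovery and between recovery and repeated atrophy. These 2 steps use the same 3 recovery limbs, so a deviation of those limbs alone would give opposite signs in the 2 steps. From atrophy to recovery 5 members were higher and 9 lower (19.7%, beside 17.9% of rows, 3.34% higher and 14.5% lower), and after rescaling 10 were higher and 1 lower (15.5%, beside 10.6%, 6.07% higher and 4.56% lower). From recovery to repeated atrophy 8 were higher and 7 lower (21.1%, beside 27.2%, 21% higher and 6.29% lower), and after rescaling 2 were higher and 18 lower (28.2%, beside 21.5%, 9.66% higher and 11.9% lower). Mrpl23 fell by 1.05 on the log2 scale from atrophy to recovery (adjusted p = 0.0105, limma) and rose by 1.10 from recovery to repeated atrophy (adjusted p = 0.00399, limma), and its rescaled values were -0.68 and 0.72. Mrpl17 rose by 0.85 in the second step (0.46 rescaled). Mrpl12, Mrpl19, Mrpl47 and Mrps27 did the opposite, with 0.89, 1.02, 0.92 and 0.63 in the first step and -1.27, -0.91, -0.98 and -0.68 in the second, and all of these were also called after rescaling. Within animals their values were 0.22, 0.40, 0.70 and 0.12 in the first step and -0.65, -0.37, -0.73 and -0.35 in the second, and those of Mrpl23 were -0.44 and 1.00. Mrps36, the dehydrogenase component, was also lower in the second step (-1.06, adjusted p = 0.0234, limma). As deposited, the first step gave 0 calls without R2, 2 without R1, 4 without A1 and 6 without A3, and the second gave 4 to 9 without R1, R2 or any repeated atrophy rat. Within animals, where the contrast is between left-right differences, 0 members were called in either step, beside 0.0143% and 0.0855% of rows. At an unadjusted p under 0.05 there were 4 and 8 members, beside 1117 and 2760 of the 14031 rows. With the other rescaling, by median of ratios, 9.76%, 12% and 25.2% of rows were called after atrophy, recovery and repeated atrophy, and 10.7% and 21.6% in these steps. Between atrophy and repeated atrophy 0 members were called by limma, beside 0.0356% of rows (0.0143% higher and 0.0214% lower). At an unadjusted p under 0.05 were 0 members and 884 rows as deposited, and 1 member and 901 rows rescaled. The median difference of the members was -0.06.

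The balance between the large and the small subunit was compared next. The mean log2(CPM + 1) of the large-subunit members exceeded that of the small-subunit members by 0.33 ± 0.04 (SD, n = 9) in control, 0.33 ± 0.06 after atrophy, 0.29 ± 0.02 in recovery, 0.35 ± 0.03 after repeated atrophy, 0.25 ± 0.06 in sham left and 0.29 ± 0.09 in sham right limbs (n = 3 each). All of these group means lay within the range of the single control limbs, 0.22 to 0.37, and no test was run on them. The summed level of the 71 members was 3375 ± 306 CPM in control, 4150 ± 489 after atrophy, 4094 ± 375 in recovery and 4000.5 ± 303 after repeated atrophy. After rescaling the sums were 3748 ± 497, 3528 ± 161, 4567 ± 714 and 3403 ± 569 CPM, so that only the recovery mean stood above control under both scalings. Assigning proteins by their place in the assembled ribosome, with Mrps30 and Mrps18a in the large subunit and Mrps36 left out, gave 6 rises and 1 fall of 45 large-subunit and 1 rise of 25 small-subunit members in recovery. The corresponding counts were 13 and 10 rises after atrophy, and 12 (with 1 fall) and 7 after repeated atrophy. Mrps18a, Mrps18b and Mrps18c, which share an ancestor with bacterial S18 and occupy different places, were not called in any comparison with control.

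By origin of the protein the counts were as follows, as a description. Of the 41 members with a counterpart in the bacterial ribosome, 15 (36.6%) were higher after atrophy, 3 (7.32%) in recovery and 11 (26.8%, with 1 lower) after repeated atrophy. Of the other 30 members, 8 (26.7%), 4 (13.3%, with 1 lower) and 8 (26.7%) were higher. Of all rows 20.3%, 4.4% and 28.1% were higher in the same order, and 2.33%, 3.33% and 6.24% were lower. The medians of the 2 classes were 0.36 and 0.32 after atrophy, 0.29 and 0.28 in recovery, and 0.16 and 0.27 after repeated atrophy. After rescaling the first class had 1 lower after atrophy, 6 higher in recovery, and 3 higher and 6 lower after repeated atrophy, and the second had 0, 5 higher, and 1 higher and 4 lower. Of all rows, 4.7% were then higher and 5.12% lower after atrophy, 6.59% and 5.25% in recovery, and 13.1% and 12.1% after repeated atrophy. The rescaled medians of the 2 classes were 0.0007 and -0.0491, 0.29 and 0.29, and -0.16 and -0.11. Transcript length was set beside the values in the same way. Across the 71 members, which share the same libraries, Spearman's rho between transcript length and log2 fold change was -0.41 after atrophy, -0.30 after repeated atrophy and 0.21 in recovery, and the rescaled values were -0.42, -0.33 and 0.21. The 36 members with transcripts of at most 996 bases had medians of 0.39, 0.19 and 0.35 in atrophy, recovery and repeated atrophy, and the 35 longer ones 0.14, 0.39 and 0.09. The same correlation was -0.32 between the left and right limbs of sham rats.

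The animals themselves gave a further view, since each TTX limb had its own contralateral limb. As deposited, the median member was higher on the left in 8 of the 9 TTX rats, by 0.42, 0.30, 0.34, 0.28, 0.10, 0.13, 0.51 and 0.35 on the log2 scale in A1, A3, R1, R2, R3, RA1, RA2 and RA3, and lower by a value of -0.08 in A2. Over all rows the same differences were 0.34 in A1, 0.17 in A3, 0.01 in R1, 0 in R2, 0.21 in R3, 0.07 in RA1, 0.28 in RA2, 0.25 in RA3 and 0 in A2. Among the TTX rats the difference between the family and the table was largest in R1 and R2. As deposited, in R3 and A2 the family lay below the table. After rescaling the median was positive in 4 of the 9 TTX rats, at 0.33 in R1, 0.29 in R2, 0.0422 in A3 and 0.0082 in RA2, and it was -0.11, -0.0519, -0.22, -0.10 and -0.0466 in A1, A2, R3, RA1 and RA3. As deposited, 18, 34 and 38 of the 71 members were higher on the left in all 3 rats of the atrophy, recovery and repeated atrophy groups, beside 25.3%, 29.6% and 40.3% of rows, and 1, 9 and 4 were lower in all 3, beside 7.54%, 14.8% and 13.4%. After rescaling 9, 16 and 17 members were higher, beside 16.1%, 23.8% and 24.9% of rows, and 14, 9 and 21 were lower, beside 15%, 22.3% and 24.9%.

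Sham rats showed a left-right difference as well. The median member was higher on the left by 0.23, 0.11 and 0.19 in S1, S2 and S3, while the median of all rows was -0.01, 0.09 and -0.02. In the fit of sham left against sham right with the animal as a block, 69 of the 71 members had a positive value, with a median of 0.18 against 0.02 for all rows, and 0.16 after rescaling. By limma's adjusted p 0 members and 0% of rows were called, and 13 members (576 of 13483 rows) were at an unadjusted p under 0.05. As deposited, 43 members were higher on the left in all 3 sham rats and 0 were lower in all 3, beside 14.4% and 8.91% of rows, and after rescaling the counts were 22 and 1, beside 11.4% and 11.1%. In S2 the rescaled median was -0.03. Sham left limbs against the 9 control limbs gave 0 calls by limma, with 4 members (1904 of 13822 rows) at an unadjusted p under 0.05. The members' medians were 0.10 as deposited and -0.11 rescaled, against 0.17 and 0.02 for all rows. In the sham rats side and surgery cannot be told apart. Mrpl45 was higher on the left in all 12 rats, at 75.8, 169 and 125 CPM on the left of the sham rats and 71.5, 97.5 and 121 on the right.

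**Figure D3:**
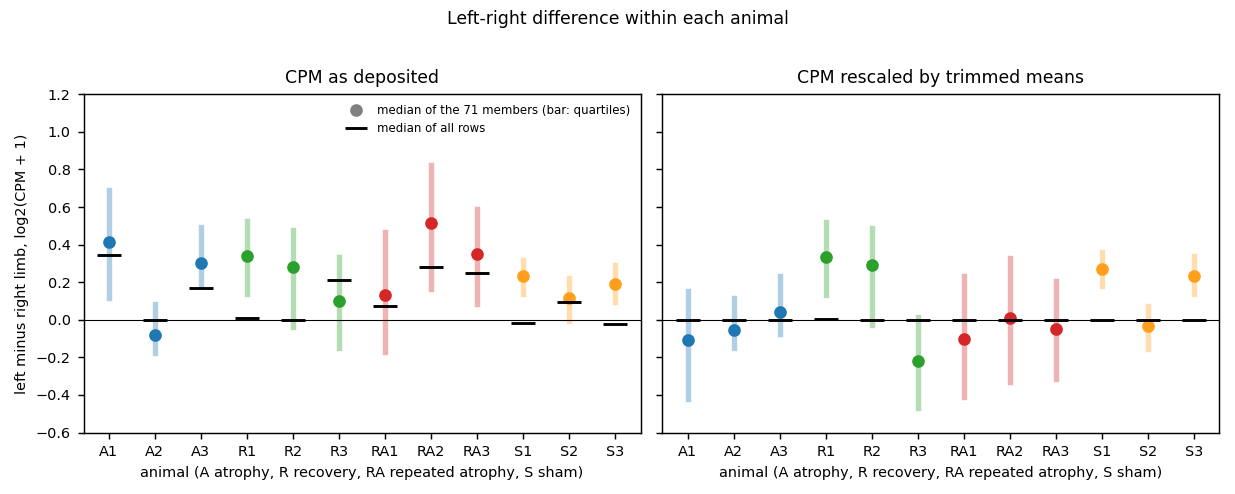
Left minus right limb in log2(CPM + 1) (y axis) for each of the 12 rats (x axis), as deposited and rescaled by trimmed means, with circles for the median of the 71 members, bars for their quartiles and dashes for the median of all rows. On rescaling R1, R2, S1 and S3 stay at 0.33, 0.29, 0.27 and 0.23, while R3 lies at -0.22 and the atrophy and repeated atrophy rats lie between -0.11 and 0.04.

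Other parts of the same system were read from lists of known genes. Of 5 further mitoribosome proteins with other names, Aurkaip1, a small-subunit protein, rose after atrophy (0.67 ± 0.15, adjusted p = 0.00897, limma) and repeated atrophy (0.75 ± 0.15, adjusted p = 0.0012, limma), neither of which was called after rescaling. Dap3, the GTP-binding small-subunit protein, rose in recovery from 24.3 ± 1.44 to 37 ± 2.55 CPM (0.59 ± 0.12, adjusted p = 0.00814, limma), as did Ptcd3 (0.62 ± 0.16, adjusted p = 0.0234, limma), and both were also called after rescaling. Within animals neither was called in recovery (adjusted p = 0.15 for Dap3 and 0.263 for Ptcd3), nor was Aurkaip1 after atrophy (adjusted p = 0.225), while Aurkaip1 was called after repeated atrophy. Dap3 also rose after repeated atrophy (0.45 ± 0.12, adjusted p = 0.00726, limma), with 0.48 within animals (adjusted p = 0.041) and 0.07 after rescaling, where it was not called. Chchd1 and Gadd45gip1 were not called in any of the 3 comparisons. The 16 mitochondrial translation factors that were measured gave 1 higher and 1 lower after atrophy, 0 in recovery by limma's adjusted p, and 1 higher and 2 lower after repeated atrophy. After rescaling 0 were higher and 4 lower after atrophy, and 1 was higher and 4 lower after repeated atrophy, with medians of -0.26 and -0.24 in place of 0.11 and 0.14. In recovery 0 were called after rescaling, and the median was 0.39 as deposited, 0.40 rescaled and 0.17 within animals, with 15 of the 16 positive under both scalings. Within animals 0 were called after atrophy or in recovery, and 2 were higher after repeated atrophy. Mtfmt, which formylates the initiator methionyl-tRNA, rose after repeated atrophy from 12.3 ± 2.87 to 31.2 ± 3.99 CPM (1.29 ± 0.23, adjusted p = 0.00052, limma). Qrsl1, a subunit of the mitochondrial glutamyl-tRNA amidotransferase, fell from 12.9 ± 3.04 to 7.42 ± 1.67 CPM (-0.71 ± 0.21, adjusted p = 0.0135, limma), and Guf1 also fell (-0.57). Of 23 assembly factors, 3 were higher after atrophy, 3 higher and 1 lower in recovery, and 5 higher and 1 lower after repeated atrophy. After rescaling these counts became 0, then 4 higher and 1 lower, then 1 higher and 5 lower, and within animals they were 0, 0, and 5 higher and 1 lower. Nsun4, which methylates the ribosomal RNA of the particle and helps join its subunits, rose after repeated atrophy from 23.9 ± 3.61 to 48.1 ± 0.481 CPM (0.99 ± 0.16, adjusted p = 0.000229, limma), and Ybey, an endonuclease of ribosomal RNA, fell (-0.86 ± 0.22, adjusted p = 0.00564, limma). Mtfmt, Qrsl1, Guf1, Nsun4 and Ybey kept these calls after rescaling, and within animals Qrsl1 (adjusted p = 0.0684) and Guf1 (adjusted p = 0.297) were not called.

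The regulators of mitochondrial gene expression split. Of 17 measured, 6 were higher and 2 lower after atrophy, 1 was higher in recovery, and 6 were higher and 3 lower after repeated atrophy. After rescaling the counts were 1 higher and 2 lower after atrophy and 3 higher and 3 lower after repeated atrophy. Within animals 0 were called after atrophy or in recovery, and 5 were higher and 2 lower after repeated atrophy. Perm1, a muscle-specific partner of the PGC-1 coactivators, fell from 209 ± 97 CPM in control to 48.9 ± 33.4 after atrophy and 7.09 ± 2.64 after repeated atrophy, with log2 fold changes of -2.15 (adjusted p = 0.00756) and -4.59 (adjusted p = 1.18e-05, limma), and read 276 ± 106 in recovery. Esrra fell after both TTX periods (-0.66 and -0.91), and Ppargc1a, which encodes PGC-1alpha, fell after the second (-1.17 ± 0.27, adjusted p = 0.00292, limma, and 0.0676 within animals). In contrast Tfam, which packages mitochondrial DNA and takes part in its transcription, rose (0.65 after atrophy and 0.91 after repeated atrophy). Gabpa (0.88 and 0.90) and Myc (1.70 and 1.65) rose as well. After rescaling the falls were still called, Myc was called in both, Tfam only after repeated atrophy (0.52) and Gabpa in neither. Within animals the atrophy values of Perm1, Esrra, Tfam, Gabpa and Myc were -1.58, -0.50, 0.33, 0.48 and 0.95, with adjusted p from 0.189 to 0.369, and all 5 were called after repeated atrophy.

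The family was set beside the ribosome of the cytosol and respiratory complex I, which holds subunits that the mitochondrial ribosome makes. Of 81 cytosolic ribosomal protein genes, 73 rose and 1 fell after atrophy, 2 rose in recovery, and 74 rose and 1 fell after repeated atrophy, with median log2 fold changes of 0.83, 0.12 and 0.94. After rescaling 22, 3 and 45 rose and the medians were 0.46, 0.12 and 0.56. Of 34 nuclear-encoded complex I subunits, 2 fell after atrophy, 3 rose in recovery, and 9 fell and 1 rose after repeated atrophy, with medians of -0.20, 0.42 and -0.24. Their rescaled medians were -0.57, 0.42 and -0.63, with 5 falls after atrophy, 0 calls in recovery and 14 falls after repeated atrophy. The mitochondrial ribosomal proteins lay between the 2 lists after either TTX period under both scalings, with 0.34 and 0.22 as deposited and -0.03 and -0.15 rescaled. In recovery the family's median was 0.28. Within animals 0 genes of either list were called after atrophy or in recovery, and 73 cytosolic genes rose and 1 fell after repeated atrophy, while 2 complex I genes rose and 3 fell. The within-animal medians in atrophy, recovery and repeated atrophy were 0.51, 0.36 and 0.96 for the cytosolic list, -0.00517, 0.05 and -0.18 for complex I, and 0.23, 0.24 and 0.35 for the family, so the order of the lists in recovery differed between the fits. Ndufs7, an iron-sulfur subunit of complex I, had the largest fall after repeated atrophy, from 187 ± 59.0 to 66.2 ± 16.5 CPM (-1.45 ± 0.30, adjusted p = 0.00154, limma), while Ndufs4, named after its values were seen, rose (0.57 ± 0.21, adjusted p = 0.0471, limma) and was not called after rescaling. The proteins encoded by mitochondrial DNA itself, which are the products of this ribosome, were not analysed here.

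**Figure D4:**
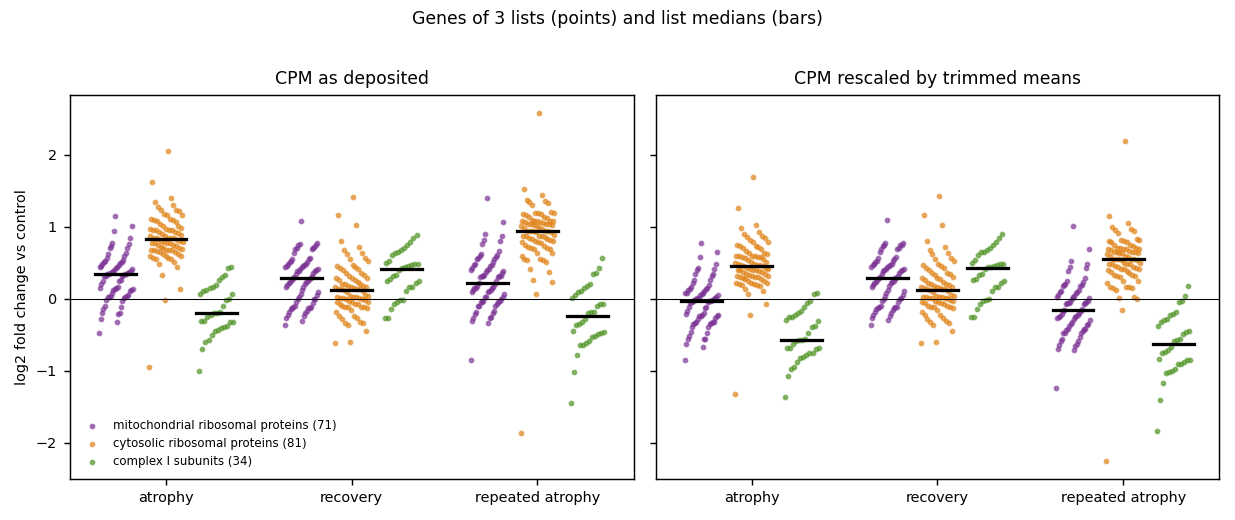
Log2 fold change against control (y axis) of the 71 mitochondrial ribosomal protein genes, 81 cytosolic ribosomal protein genes and 34 complex I subunit genes in the 3 comparisons (x axis), as deposited and rescaled, with points for genes and bars for list medians. After atrophy as deposited the bars lie at 0.34, 0.83 and -0.20, and in recovery at 0.28, 0.12 and 0.42.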

How the data were processed

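RNA-seq of 24 TA limbs of 12 rats was read from a table of CPM that the authors deposited, in which every column sums to 1000000. Per the labels and methods, the authors aligned paired reads to rn7 with STAR after removing contaminants with Bowtie2 2.2.5, and worked in Partek. Their methods state median-of-ratios scaling, but the values are CPM. How reads were counted, and on which gene models, is not given in the sources used here. Of 27 value columns, 3 matched no sample and were not used. Exact duplicate rows (28 of 14271) were dropped, and the row with the highest mean stood for each symbol (71 members, 76 rows).

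Depth (18.9 to 30.9 times 1000000 reads, median 26.1) came from the value of 1 read in each column. Only 86.8% to 88.4% of low values were whole reads within 0.02 of a step, so no count test was run. Values were tested as log2(CPM + 1) with limma 3.58.1 (trended variance, R 4.3.3, two-sided) on rows above 0 in at least 3 samples. The 18 left TTX and right limbs were fitted together (14031 rows) with Benjamini-Hochberg adjustment over all rows. Sham left limbs were fitted against control alone, and against sham right limbs with the animal as a block. A row was called where its fold change reached 1.2 with an adjusted p not above 0.05. Fold changes on this scale understate changes of low genes. The genes named were the 6 largest rises and falls called in each comparison with control (filled up by unadjusted p to 3 each way), the 5 highest and lowest by level, members of particular placement, and up to 6 of each other list by change after repeated atrophy. Other named members were chosen after their values were seen.

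Limbs of a rat share the animal, so a fit with the animal as a fixed block (within animals) was also run, and one with the animal as a random effect (limma's limb correlation 0.108). The deviations of paired limbs from their group means correlated above 0.1 in 4 of 9 TTX rats (mean 0.118) and by 0.745 on average in sham rats. On simulated data for repeated atrophy against control, with 200 changed genes among 13984 rows, the fit without the block recovered 3.57% of those changed 1.5-fold, 74.0% of those changed 2-fold and 100% of those changed 4-fold, and adding the animal block gave 1.79%, 26.0% and 98.6%. The simulation held a dispersion of 0.05 and no animal effect, and changed a smaller share of rows than was called here. Its recovered shares, with or without the block, therefore need not hold for these data. The members and gene lists were chosen with earlier results of these data known. Alternatives were rescaling, other filters, pseudocounts and fold minimums, other control sets, and leaving out each animal.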

Additional observations from a re-analysis of the deposited data

Results flagged for a closer look

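In 4 of the 71 genes the highest of the 9 control limbs stood far from the others, where chance gives about 1 in 20. The count is therefore near the rate of chance. Mrpl45 read 224 CPM in the right limb of A3 and 123 in the next limb. Mrps7 read 123 CPM in the same limb and 96 in the next. Mrps12 read 25.2 CPM in the right limb of A2 (next 20.1), and Mrps28 read 2.76 CPM in the right limb of RA1 (next 1.48).

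In 4 genes every rat of 1 time point differed between its limbs in the opposite direction to every rat of another, which is 5.63% of the members beside 6.22% of all rows. After rescaling it was 0 members, beside 6.58% of rows. The mean left minus right difference of Mrpl27 in log2(CPM + 1) was 0.12 in atrophy, -0.34 in recovery and 0.23 in repeated atrophy rats. That of Mrpl43 was 0.27, -0.24 and 0.44, and that of Mrps18a was 0.19, -0.22 and 0.25. Mrpl54 had 0.14 in atrophy and -0.32 in recovery. In limma's fit with the animal as a block none of these differences passed, with adjusted p of 0.612 to 0.648 between atrophy and recovery and 0.166 to 0.249 between recovery and repeated atrophy.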

How the results depend on the processing

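Rescaling by trimmed means or by median of ratios moved most calls. Higher and lower members after atrophy numbered 0 and 1 under either (1 call), after repeated atrophy 4 and 10 or 5 and 9 (14 calls), from atrophy to recovery 10 and 1 under either (11 calls), and from recovery to repeated atrophy 2 and 18 (20 calls) or 2 and 16 (18 calls). Large-subunit medians became -0.0296 and -0.0343 after atrophy, -0.20 under either after repeated atrophy, 0.27 and 0.26 from atrophy to recovery, -0.29 and -0.28 from recovery to repeated atrophy, and -0.14 and -0.15 in sham left limbs. Small-subunit medians became -0.0206 and -0.0251, -0.11 and -0.10, 0.30 and 0.29, -0.41 and -0.39, and -0.0668 and -0.0783.

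With the animal as a fixed replicate block, 0 members were called after atrophy, in recovery and in both steps between time points, and 18 after repeated atrophy. With the animal as a random effect instead, the calls were 21, 10 and 22 after atrophy, recovery and repeated atrophy and 10 and 16 in the steps, each within 1.5 times the count without it. With the fixed block and rescaling, chosen after seeing the data, 9 were called after repeated atrophy and 0 in the others. A fold minimum of 1.5 gave 11, 5, 11, 9 and 9 calls in the order atrophy, recovery, repeated atrophy, first and second step. Fitting only the compared groups gave 15 after atrophy and 5 (3 higher, 2 lower) in the first step. In recovery a mean of at least 10 CPM gave 14 and 12 right limbs as control gave 15. For the random effect, the fold minimum of 1.5 and the settings after it, the share of all rows called is not given. Those counts therefore describe the members alone.

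Leaving out each animal gave 0 to 33 calls after atrophy, 0 to 14 in recovery, 11 to 24 after repeated atrophy, 0 to 20 in the first step and 4 to 17 in the second. Large-subunit medians then ranged from 0.21 to 0.43, 0.24 to 0.31, 0.14 to 0.23, -0.18 to 0.0769 and 0.029 to 0.13. Small-subunit medians ranged from 0.23 to 0.47, 0.29 to 0.37, 0.16 to 0.32, -0.16 to 0.0369 and -0.13 to 0.0599. Between atrophy and repeated atrophy they ranged from -0.14 to 0.0428 and -0.13 to 0.0675, and in sham left limbs against control from 0.00126 to 0.11 and 0.11 to 0.16, and between sham limbs from 0.12 to 0.20 and 0.15 to 0.25.

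Over the whole family, 60 of the 71 members were positive after atrophy as deposited, 32 by trimmed means and 30 by median of ratios. After repeated atrophy the counts were 52, 26 and 26. Among the results followed through each setting, the following directions turned. After atrophy Mrpl10 had -0.00298 by median of ratios and -0.0442 with block and rescaling, Mrps23 had -0.0292 with both, and Mrps24 had -0.0174 and -0.022 under the rescalings and -0.0217 with both. After repeated atrophy Mrpl37 had -0.38 under either rescaling and -0.36 with the block added, and when animals were left out it ranged from -0.0319 to 0.0228. Mrpl44 had 0.0322 under the block, and Mrpl54 reached 0.0643 without RA3. From recovery to repeated atrophy Mrpl4 had 0.0457 and Mrpl48 0.0688 under the block. Why these values moved was not tested. A count test was not run because whole reads could not be recovered. In the simulation of repeated atrophy against control, which changed fewer genes and held no animal effect, 3.57% of the 1.5-fold changes were recovered.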
